A study of Egretta garzetta and Nycticorax nycticorax with 12 samples.

Results

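The stage differences of the same genes were set side by side in 2 heron species, to see whether adults and nestlings differed alike in both. The genes are those to which the study's list of vision-related genes gives an identifier in each species. Of its 299 symbols, 266 had an identifier in the *N. nycticorax* files and 257 in the *E. garzetta* files, and 245 had both. They form 244 distinct pairs of identifiers, because PROM1 and ROM1 share theirs, out of 13361 genes annotated in *N. nycticorax* and 16585 annotated in *E. garzetta*. In all, 9 symbols share an identifier with another listed symbol. GUCA1A and GUCA1C have the same *N. nycticorax* gene, as have ARR3 and SAG, so the values of these genes enter the pairs more than once. A mean of at least 0.02 TPM in each species was reached by 236 pairs. The 8 pairs under it include CNGA1, GNAT1, PDC, PDE6C, PRPH2, RGR and RORB, most of them photoreceptor genes. Just under this limit lay RGR, with a mean of 0.470 TPM in *N. nycticorax*, against 0.0177 TPM in *E. garzetta*, and RORB, with 0.0115 TPM in *N. nycticorax*, against 0.0274 TPM in *E. garzetta*. Just above it lay PTPRM, with 0.0202 TPM in *N. nycticorax*, against 19.1 TPM in *E. garzetta*, and GUCA1A, with 0.803 TPM in *N. nycticorax*, against 0.0440 TPM in *E. garzetta*.

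Olfactory epithelium (OE), the sheet of nasal tissue with the olfactory neurons, was taken from 3 adults and 3 nestlings of the black-crowned night heron *N. nycticorax*, a mostly nocturnal bird, and from 3 adults and 3 nestlings of the little egret *E. garzetta*, a diurnal bird. Adults were told by their breeding plumage, and the nestlings were small-bodied. Each nestling came from a nest of its own and adults were caught elsewhere, so stage and place of capture cannot be told apart. Each bird was 1 library, with no treatment. Adults carry the bird numbers 4, 5 and 6 and nestlings 1, 2 and 3, and values per bird are given in that order. Values are TPM, the share of a transcript in the library's length-corrected reads, rescaled within a species so that the median gene is level between its birds. A stage difference is the mean log2(TPM + 0.1) of the adults minus that of the nestlings, so it is positive where adults were higher.

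OE is a renewing tissue. Horizontal and globose basal cells divide and give rise to olfactory neurons, sustentacular cells support them, and a connective tissue with vessels and glands lies underneath. Many genes first known from the eye are used in such a tissue too. Cyclic-nucleotide gating, cilia, retinoic acid and the transcription factors SOX2 and PAX6 have established roles in olfactory as well as in visual cells. Genes of photoreceptor discs and of lens fibres have no established role there.

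Between 10530972 and 16326012 reads, counted as coverage times coding length over the read length, lay on annotated transcripts per bird. Summed over the listed olfactory receptor (OR) genes, which mark olfactory neurons, adults 4, 5 and 6 of *N. nycticorax* had 2.83, 7.47 and 12.6 TPM, against 5.04, 50.3 and 70.8 TPM in nestlings 1, 2 and 3. In *E. garzetta* the sums were 31.6, 1.83 and 26.6 TPM in adults, against 7.28, 1.30 and 43.6 TPM in nestlings. These OR sums cover 61 genes in *N. nycticorax*, against 132 in *E. garzetta*. The listed genes are the OR genes that the paper detected in these same birds. In *N. nycticorax* the paper detected all of them in nestlings but only some in adults. That choice of genes favours nestlings, so the OR sums cannot measure a stage difference in neuron content there. The marker sums of mesenchyme (6 genes) were 4202 to 12365 TPM in adult and 1167 to 23340 TPM in nestling *N. nycticorax*, and 10239 to 85951 TPM in adult and 23413 to 45495 TPM in nestling *E. garzetta*. COL1A1 made up most of each of these sums, so they follow mainly that gene. Its gene model has 870 coding bases in *N. nycticorax*, against 360 in *E. garzetta*. Of the 6 markers PDGFRB alone had adults and nestlings without overlap, in *N. nycticorax* with adults higher. Surface epithelium markers (5 genes) summed to 545 to 865 TPM in adult and 365 to 1079 TPM in nestling *N. nycticorax*, and to 225 to 387 TPM in adult and 268 to 401 TPM in nestling *E. garzetta*. The water channel AQP5 made up most of these sums, so they follow mainly that gene. The exception was adult 5 of *E. garzetta*, where it had 30.3 TPM. Neuron markers (5 genes) summed to 114 to 120 TPM in adult and 105 to 161 TPM in nestling *N. nycticorax*, and to 135 to 186 and 132 to 150 TPM in *E. garzetta*. Immune cell markers (4 genes) summed to 72.6 to 92.6 TPM in adult and 34.5 to 79.5 TPM in nestling *N. nycticorax*, and to 51.8 to 109 and 48.4 to 79.0 TPM in *E. garzetta*. The muscle marker CACNA1S was at most 1.01 TPM. Among the 8 eye markers the rod transducin GNAT1 was at 0 in every *E. garzetta* bird and at most 0.248 TPM in *N. nycticorax*. All 8 summed to no more than 29.2 TPM in any bird. Nestling 2 of *N. nycticorax* and adult 5 of *E. garzetta* stood apart, the one with 44.8% and the other with 44.9% of its TPM in the 100 most abundant genes, against 28.3% to 38.4% in the other 10 birds. The genes above 0 had a median of 9.31 TPM as deposited in that nestling, against 20.7 to 27.1 TPM in the other *N. nycticorax* birds. The rescaling divided its TPM by 0.54, against 0.99 to 1.21 in those birds, so its values given here lie well above the deposited ones. Across genes, the log2 values of nestling 1 of *N. nycticorax* correlated better with the adults (mean r = 0.94) than with the other nestlings (mean r = 0.86). The same held for nestling 3 (0.91 with adults, against 0.89 with nestlings) and for all 3 adults of *E. garzetta* (0.92 to 0.93 with the other adults, against 0.93 to 0.96 with nestlings). In whole tissue, fewer cells of a type and less RNA per cell cannot be told apart, and the part of cell makeup in the differences was not tested.

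The stage differences of the 2 species showed little relation across the paired genes. Of 236 pairs, 107 (45.3%) had the same direction, 63 with higher adults and 44 with higher nestlings, and 129 had opposite directions. Pearson's r between the differences was 0.01 and Spearman's rank correlation 0.03 over the 236 pairs, which share the birds within each species and are not independent. The mean log2 levels of the same pairs correlated with r = 0.92, and those of the 44 pairs with a mean under 1 TPM in a species with r = 0.11. Stage differences had an SD of 0.83 in *N. nycticorax*, against 0.48 in *E. garzetta*, beside median standard errors of 0.59 and 0.38. Noise of that size lowers r, so the r of levels and the r of differences cannot be set against each other. Among 192 pairs with a mean of at least 1 TPM in each species 85 (44.3%) had the same direction, and among 134 with at least 10 TPM 65 (48.5%) did, with r = -0.02 and r = 0.04. Without shared identifiers 106 of 229 pairs (46.3%) had the same direction, with r = 0.07.

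**Figure D1:**
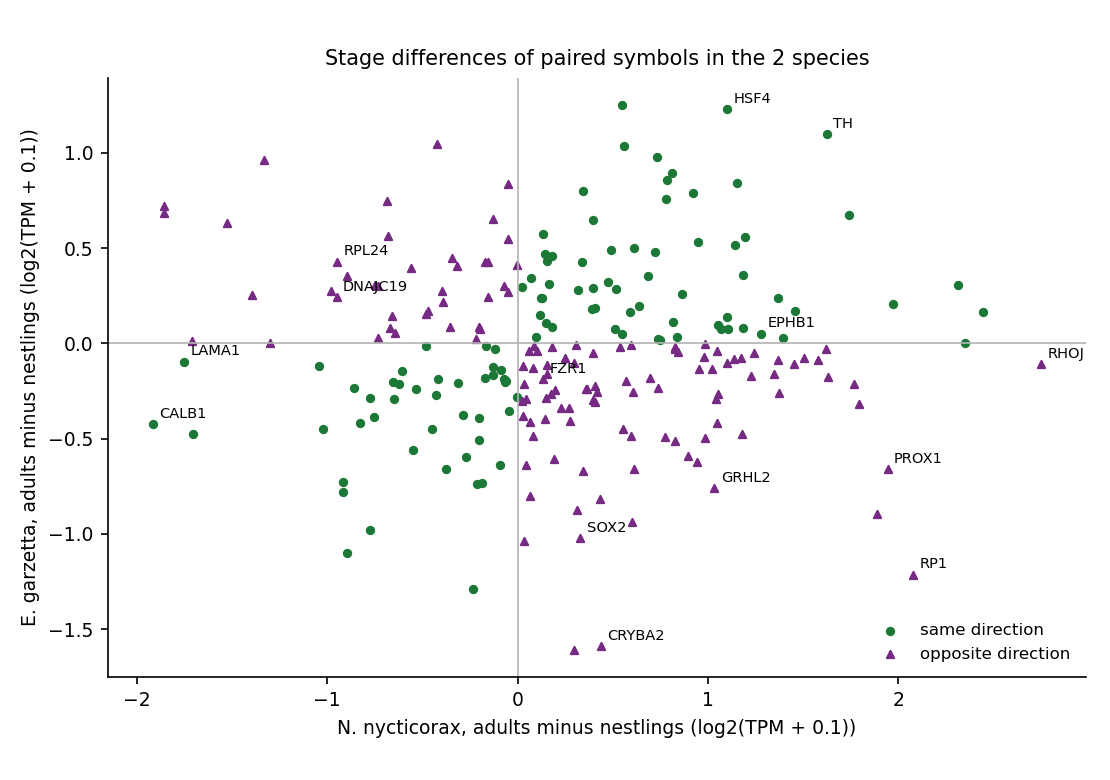
Each point is 1 of 236 paired genes, with the adult minus nestling difference of mean log2(TPM + 0.1) in N. nycticorax on the x axis and in E. garzetta on the y axis. Circles have the same direction in both species and triangles opposite directions, and the cloud is wider along x (SD 0.83) than along y (SD 0.48) and shows no slope (r = 0.01), with 107 circles and 129 triangles.

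More pairs were higher in adults in *N. nycticorax* (64.4%, median difference 0.19) than in *E. garzetta* (43.6%, median -0.04), beside medians over all genes tested of 0.03 in *N. nycticorax*, against -0.02 in *E. garzetta*. This imbalance depended on the scaling. With TPM as deposited 81.4% of the pairs were higher in adults in *N. nycticorax*, against 33.1% in *E. garzetta*, and 35.6% had the same direction. With a rescaling over the paired genes alone the shares were 48.7% in *N. nycticorax*, against 44.1% in *E. garzetta*, and 51.3% had the same direction. No rescaling moved the median of all genes to 0.45 in *N. nycticorax*, against -0.14 in *E. garzetta*. The correlation stayed near 0 under these scalings, with r = -0.01 for TPM as deposited and r = 0.01 for the rescaling over paired genes.

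No pair passed the threshold of an adjusted p of 0.05. In *N. nycticorax* limma called 0 of 13042 genes (0%), and 947 genes (7.26%) had an unadjusted p under 0.05, among them 20 of the 236 pairs (8.47%). In *E. garzetta* it called 0 of 14960 genes (0%), with 410 (2.74%) under the unadjusted 0.05 and none of the pairs. These counts moved with single birds. In *N. nycticorax* the 20 pairs became 4, 7 and 10 without adult 4, 5 and 6 and 46 without nestling 1, and the genes 390, 458 and 427 without these adults and 2671 without nestling 1. In *E. garzetta* 16 pairs had an unadjusted p under 0.05 without adult 4, 15 without adult 6 and 0 to 4 without any other bird. The genes under it numbered 1236 without adult 4, 245 without nestling 2 and 270 without nestling 3. The smallest adjusted p of a pair was 0.578 in *N. nycticorax*, against 0.961 in *E. garzetta*. The difference between the species in the stage difference (the species-by-stage difference) was fitted over the 236 pairs, the only genes with a value in both species. It gave 0 calls (0%), a smallest adjusted p of 0.667 and 12 pairs (5.08%) with an unadjusted p under 0.05, 6 of them positive and 6 negative. The median standard error of a stage difference was 0.59 in *N. nycticorax*, against 0.38 in *E. garzetta*.

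Stage differences were wider in *N. nycticorax*, over all genes tested (SD 0.90, against 0.60 in *E. garzetta*) as over the pairs (SD 0.83, against 0.48). The share of all genes beyond 1 on the log2 scale was not counted. A difference beyond 1 on the log2 scale, a doubling, was measured for 58 pairs in *N. nycticorax*, against 12 in *E. garzetta*, and for 3 in both. With 1 bird left out the *N. nycticorax* count was 38 without nestling 2, 91 without nestling 1 and 90 without nestling 3, and that of *E. garzetta* was 32 without adult 4 and 25 without nestling 1, with 2 to 9 pairs in both. A pseudocount of 0.01 TPM gave 69 pairs in *N. nycticorax*, against 27 in *E. garzetta*, and 14 in both, whereas one of 1 TPM gave 30 in *N. nycticorax* and none elsewhere. HSF4, a heat shock factor active in lens development, and TH, the tyrosine hydroxylase of dopamine synthesis, were higher in adults of both species, and RP1, a microtubule protein of photoreceptor axonemes, went opposite ways. TH had 0.292, 0.0985 and 0.842 TPM in adult *N. nycticorax*, against 0, 0.0911 and 0.0308 TPM in nestlings, and 0.418, 0.173 and 0.607 TPM in adult *E. garzetta*, against 0.287, 0 and 0.163 TPM in nestlings. HSF4 had 0.405, 0.252 and 0.513 TPM in adult *N. nycticorax*, against 0, 0 and 1.01 TPM in nestlings, and 0.477, 0.985 and 1.08 TPM in adult *E. garzetta*, against 0.324, 0.326 and 0.218 TPM in nestlings. Both genes lay at or under about 1 TPM, with at most 18.5 reads in any bird, and only TH in *N. nycticorax* and HSF4 in *E. garzetta* had every adult above every nestling. RP1 had 11.2, 3.87 and 11.9 TPM in adult *N. nycticorax*, against 10.8, 0.284 and 1.61 TPM in nestlings, and 6.43, 0.246 and 6.05 TPM in adult *E. garzetta*, against 4.41, 3.62 and 10.2 TPM in nestlings. Its low values were those of nestlings 2 and 3 of *N. nycticorax* and of adult 5 of *E. garzetta*. These 3 genes are named for this joint size and were chosen after their values were seen.

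Every adult lay above every nestling for 33 pairs in *N. nycticorax* (14.0%, against 9.73% of all genes) and for 9 pairs in *E. garzetta* (3.81%, against 3.95%). Every adult lay below every nestling for 17 pairs in *N. nycticorax* (7.20%, against 10.4%) and for 5 in *E. garzetta* (2.12%, against 4.06%). The 33 genes of *N. nycticorax* include the receptor kinases EPHB1, MERTK and PDGFRB, the Wnt co-receptor LRP6, the Hedgehog co-receptor CDON, the myosins MYO3A and MYO7A, the retinoic acid synthase ALDH1A3 and the water channel AQP1, all named as examples after their values were seen. The 17 lower ones include the lysosomal storage disease genes CLN6 and PPT1, the ciliary genes RPGRIP1L and TTC8, the lens proteins BFSP1 and CRYAB, and RRM1, the large subunit of ribonucleotide reductase. The *N. nycticorax* gene models of MYO7A and RPGRIP1L have only 564 and 498 coding bases, against 6540 and 3813 in *E. garzetta*. In *E. garzetta* the 9 genes were BMPR1B, DNAJC19, HSF4, IMPG2, RAB18, RNF2, RPL24, SLC24A2 and STRA6, and the 5 lower ones CASP2, FZR1, HDAC1, PRDM1 and PROX1. Of the 33, 17, 9 and 5 genes, 4 were apart in both species, all with opposite directions, and 0 with the same direction. Only the pairs have values in both species, so no share over all genes stands beside these 4. How many such genes would arise without a stage effect was not worked out. With the rescaling over paired genes and without rescaling 3 were apart in opposite directions. Without rescaling these 3 were not all from the 4, as RPL24 and DNAJC19 then overlapped in *E. garzetta*. Of the 50 genes apart in *N. nycticorax* 28 had the same direction in *E. garzetta*, and of the 14 apart in *E. garzetta* 6 had the same direction in *N. nycticorax*.

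The 4 genes apart in both species were PROX1 (NheS0079g020 at 2793066 to 2829581 of scaffold 79 in *N. nycticorax*, Ega_R007556 at 945716 to 982274 of scaffold 319 in *E. garzetta*), RPL24 (NheS0123g012 at 2294923 to 2298570 of scaffold 123 in *N. nycticorax*, Ega_R008914 at 458189 to 460488 of scaffold 367 in *E. garzetta*), DNAJC19 (NheS0239g002 at 670235 to 673480 of scaffold 239 in *N. nycticorax*, Ega_R013916 at 397178 to 400095 of scaffold 637 in *E. garzetta*) and FZR1 (NheS1143g002 at 18903 to 27088 of scaffold 1143 in *N. nycticorax*, Ega_R012942 at 27979 to 36046 of scaffold 564 in *E. garzetta*). PROX1 is a homeobox factor of lens fibre and lymphatic vessel development. It had 4.11, 2.72 and 2.46 TPM in adult *N. nycticorax*, against 1.58, 0.180 and 1.04 TPM in nestlings, and 2.67, 1.22 and 2.26 TPM in adult *E. garzetta*, against 3.04, 3.41 and 3.00 TPM in nestlings. The PROX1 adult minus nestling difference was 1.94 ± 0.79 (SE) in *N. nycticorax*, against -0.66 ± 0.44 (SE) in *E. garzetta* on the log2 scale. The *N. nycticorax* identifier of PROX1 is also that given for PRPH2, a disc rim protein of photoreceptors. Its coding length of 2238 bases is close to the 2235 bases of PROX1 in *E. garzetta*, where PRPH2 has 1062 bases.

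RPL24, a protein of the large ribosomal subunit, went the other way. It had 900.0, 1044 and 967 TPM in adult *N. nycticorax*, against 1203, 4375 and 1239 TPM in nestlings, and 1404, 2295 and 1773 TPM in adult *E. garzetta*, against 1350.2, 1295 and 1337 TPM in nestlings. Nestling 2, whose TPM were divided by 0.54 in the rescaling, held the highest value of *N. nycticorax* by far, and the other nestlings lay close above the adults. Without rescaling the RPL24 values of adults and nestlings overlapped in *E. garzetta*. The RPL24 adult minus nestling difference was -0.95 ± 0.59 (SE) in *N. nycticorax*, against 0.43 ± 0.26 (SE) in *E. garzetta* on the log2 scale.

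DNAJC19 is a co-chaperone of protein import into mitochondria, and its identifier is the neighbour of that of SOX2 in both annotations. It had 85.2, 93.8 and 89.6 TPM in adult *N. nycticorax*, against 135, 262 and 146 TPM in nestlings, and 219, 208 and 206 TPM in adult *E. garzetta*, against 163, 191 and 183 TPM in nestlings. The groups were narrow after the rescaling apart from nestling 2 of *N. nycticorax*, whose TPM were divided by 0.54 there. As deposited this bird was the lowest nestling of *N. nycticorax*, still above every adult, and the groups of *E. garzetta* overlapped. The DNAJC19 adult minus nestling difference was -0.95 ± 0.32 (SE) in *N. nycticorax*, against 0.24 ± 0.15 (SE) in *E. garzetta* on the log2 scale, and the species-by-stage difference had the smallest p of all pairs (-1.19 ± 0.39 (SE), adjusted p = 0.667).

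FZR1, an activator of the anaphase-promoting complex that holds cells out of division, had 20.8, 22.1 and 21.0 TPM in adult *N. nycticorax*, against 20.6, 20.7 and 17.2 TPM in nestlings, and 18.2, 18.3 and 15.4 TPM in adult *E. garzetta*, against 18.6, 21.4 and 18.9 TPM in nestlings. The groups did not overlap but were close together. The FZR1 adult minus nestling difference was 0.13 ± 0.31 (SE) in *N. nycticorax*, against -0.19 ± 0.20 (SE) in *E. garzetta* on the log2 scale, both smaller than the standard error. With a rescaling over the paired genes alone the *N. nycticorax* difference of FZR1 turned to -0.12.

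**Figure D2:**
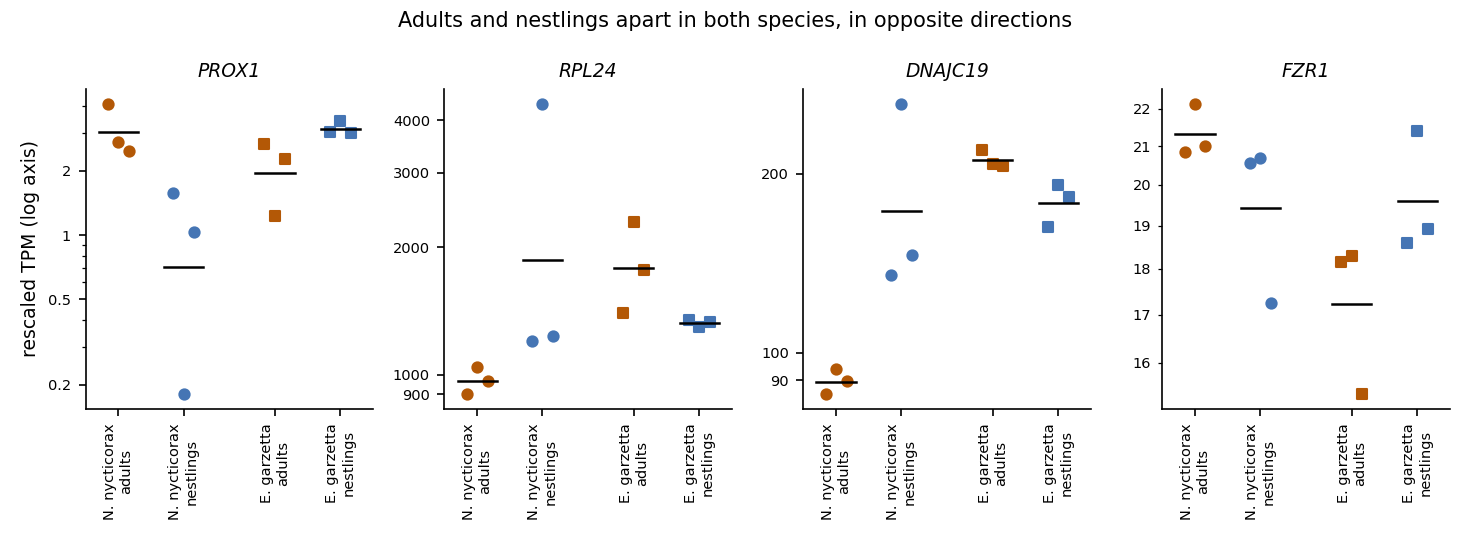
Rescaled TPM (log axis) of each bird for the 4 genes whose adults and nestlings did not overlap in either species, adults left of nestlings, N. nycticorax (circles) left of E. garzetta (squares), with a line at the geometric mean after adding 0.1 TPM. PROX1 and FZR1 were higher in adult N. nycticorax and lower in adult E. garzetta than in nestlings, and RPL24 and DNAJC19 the reverse, with nestling 2 of N. nycticorax at 4375 TPM for RPL24.

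The 6 pairs with the smallest p of the species-by-stage difference were, beside DNAJC19 and PROX1, BAK1, RGS9, EPHB1 and LAMA1. BAK1, a pore-forming protein of apoptosis at the mitochondrial membrane, had 107, 85.9 and 66.3 TPM in adult *N. nycticorax*, against 60.9, 23.7 and 47.5 TPM in nestlings, and 37.4, 34.6 and 62.7 TPM in adult *E. garzetta*, against 65.3, 69.7 and 42.6 TPM in nestlings. It was apart in *N. nycticorax* and overlapped in *E. garzetta* (species-by-stage difference 1.47 ± 0.55 (SE), adjusted p = 0.667). The BAK1 gene model has 252 coding bases in *N. nycticorax*, against 567 in *E. garzetta*. RGS9, which speeds up the inactivation of transducin in photoreceptors, had 11.1, 11.0 and 13.3 TPM in adult *N. nycticorax*, against 8.60, 3.40 and 4.62 TPM in nestlings, and 1.92, 4.83 and 5.14 TPM in adult *E. garzetta*, against 5.03, 5.02 and 5.25 TPM in nestlings. Adult 4 was the one low bird of *E. garzetta* (species-by-stage difference 1.65 ± 0.66 (SE), adjusted p = 0.667).

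EPHB1, an ephrin receptor of axon guidance, had 23.1, 34.9 and 24.9 TPM in adult *N. nycticorax*, against 10.1, 11.2 and 12.2 TPM in nestlings, and 24.7, 47.2 and 28.7 TPM in adult *E. garzetta*, against 46.8, 28.6 and 22.5 TPM in nestlings. The lowest adult of *N. nycticorax* lay well above the highest nestling, whereas the ranges of *E. garzetta* overlapped. The EPHB1 adult minus nestling difference was 1.28 ± 0.35 (SE) in *N. nycticorax*, against 0.05 ± 0.36 (SE) in *E. garzetta* on the log2 scale. LAMA1, a laminin chain of basement membranes, had 4.19, 4.08 and 2.13 TPM in adult *N. nycticorax*, against 9.90, 13.4 and 11.2 TPM in nestlings, and 15.2, 6.10 and 4.94 TPM in adult *E. garzetta*, against 6.26, 10.6 and 8.50 TPM in nestlings. The LAMA1 adult minus nestling difference was -1.75 ± 0.49 (SE) in *N. nycticorax*, against -0.10 ± 0.48 (SE) in *E. garzetta* on the log2 scale. The LAMA1 gene model has 819 coding bases in *N. nycticorax*, against 9228 in *E. garzetta*, so a part is set beside a far longer model. For EPHB1 the *E. garzetta* model is the shorter one, with 906 coding bases, against 2922 in *N. nycticorax*. The species-by-stage difference was 1.23 ± 0.50 (SE) for EPHB1 and -1.65 ± 0.67 (SE) for LAMA1, each with an adjusted p = 0.667. Both genes were apart in *N. nycticorax* birds, with no direction in *E. garzetta* that held when single birds were left out. The other 6 pairs under the unadjusted 0.05 were AHR and RHOJ, positive, and BMPR1B, CRYAB, NOB1 and PDE6D, negative.

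RHOJ, a small GTPase of endothelial cells, had the largest positive difference in *N. nycticorax* among the 192 pairs with a mean of at least 1 TPM in each species. It had 12.4, 10.7 and 13.7 TPM in adult *N. nycticorax*, against 4.15, 0.173 and 5.16 TPM in nestlings, and 13.9, 18.6 and 12.5 TPM in adult *E. garzetta*, against 22.7, 12.3 and 14.5 TPM in nestlings. Nestling 2 of *N. nycticorax* was the low bird, and the groups of *E. garzetta* overlapped. The RHOJ adult minus nestling difference was 2.75 ± 1.10 (SE) in *N. nycticorax*, against -0.11 ± 0.31 (SE) in *E. garzetta* on the log2 scale (species-by-stage difference 2.86 ± 1.22 (SE), adjusted p = 0.667). The largest negative one was CALB1, the calcium buffer calbindin, with 1.10, 1.01 and 4.56 TPM in adult *N. nycticorax*, against 2.74, 5.62 and 20.4 TPM in nestlings, and 6.07, 3.87 and 6.74 TPM in adult *E. garzetta*, against 6.48, 7.16 and 8.36 TPM in nestlings. Adult 6 overlapped the nestlings in *N. nycticorax*, and the means of both species were lower in adults (-1.91 ± 0.91 (SE) in *N. nycticorax*, against -0.42 ± 0.34 (SE) in *E. garzetta*).

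IMPG2, a proteoglycan of the matrix between photoreceptors, had the largest positive difference in *E. garzetta* among the same 192 pairs. It had 2.98, 2.80 and 3.09 TPM in adult *N. nycticorax*, against 3.72, 1.01 and 2.00 TPM in nestlings, and 1.43, 2.56 and 2.15 TPM in adult *E. garzetta*, against 1.37, 0.647 and 0.860 TPM in nestlings. The IMPG2 adult minus nestling difference was 0.56 ± 0.62 (SE) in *N. nycticorax*, against 1.04 ± 0.49 (SE) in *E. garzetta* on the log2 scale, so both means were higher in adults. CRYBA2, a lens beta-crystallin, had the largest negative one among them, with 1.13, 4.71 and 3.46 TPM in adult *N. nycticorax*, against 5.94, 13.9 and 0 TPM in nestlings, and 4.12, 0 and 14.4 TPM in adult *E. garzetta*, against 1.89, 7.09 and 11.6 TPM in nestlings. Nestling 3 of *N. nycticorax* and adult 5 of *E. garzetta* were listed at 0, and the differences of 0.44 ± 1.73 (SE) in *N. nycticorax*, against -1.59 ± 1.77 (SE) in *E. garzetta*, turned to -1.74 without nestling 3 of *N. nycticorax* and to 0.51 without adult 5 of *E. garzetta*.

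Genes with known roles in this tissue were read bird by bird. SOX2, a factor of basal and sustentacular cells, had 169.6, 204 and 151 TPM in adult *N. nycticorax*, against 191, 120.1 and 114 TPM in nestlings, and 143, 13.8 and 123 TPM in adult *E. garzetta*, against 103, 153 and 131 TPM in nestlings. Adult 5 of *E. garzetta* was the low bird, and without it the *E. garzetta* difference of -1.02 became 0.064, the same direction as the 0.33 of *N. nycticorax*. PAX6, of eye and olfactory development, had 4.60, 3.62 and 4.42 TPM in adult *N. nycticorax*, against 4.55, 4.43 and 18.6 TPM in nestlings, and 9.09, 0.398 and 6.45 TPM in adult *E. garzetta*, against 3.54, 7.16 and 8.60 TPM in nestlings. Nestling 3 was the high bird of *N. nycticorax* and adult 5 the low bird of *E. garzetta*, and without adult 5 the *E. garzetta* difference of -0.98 turned to 0.34. GRHL2, a factor of epithelial identity, had 45.0, 34.5 and 46.1 TPM in adult *N. nycticorax*, against 58.8, 6.64 and 21.0 TPM in nestlings, and 22.0, 9.91 and 30.9 TPM in adult *E. garzetta*, against 27.9, 33.7 and 35.1 TPM in nestlings. The GRHL2 adult minus nestling difference was 1.03 ± 0.72 (SE) in *N. nycticorax*, against -0.76 ± 0.41 (SE) in *E. garzetta* on the log2 scale, with the low values in nestling 2 of *N. nycticorax* and adult 5 of *E. garzetta*, and these signs were the same in every alternative tried.

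COL1A1, the main collagen of connective tissue, had 3852, 11195 and 3308 TPM in adult *N. nycticorax*, against 730.3, 6522 and 21999.7 TPM in nestlings, and 33350.0, 80963 and 9015 TPM in adult *E. garzetta*, against 43023, 20730.4 and 21786 TPM in nestlings. The COL1A1 adult minus nestling difference was 0.15 ± 1.29 (SE) in *N. nycticorax*, against 0.11 ± 1.02 (SE) in *E. garzetta* on the log2 scale, each smaller than its standard error. LUM, a collagen-binding proteoglycan, had 84.1, 433 and 208 TPM in adult *N. nycticorax*, against 81.6, 354 and 360.1 TPM in nestlings, and 1569, 2074 and 453 TPM in adult *E. garzetta*, against 517, 1385 and 847 TPM in nestlings. VIM, the intermediate filament protein of mesenchyme, had 443, 609.7 and 615 TPM in adult *N. nycticorax*, against 327, 888 and 871 TPM in nestlings, and 1413, 2480.2 and 681 TPM in adult *E. garzetta*, against 1641, 1111 and 1090.0 TPM in nestlings. The groups overlapped in both species for all 3 genes, and nestling 1 of *N. nycticorax* and adult 5 of *E. garzetta* were the lowest and highest birds of COL1A1.

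CNGB1, a subunit of the cyclic-nucleotide gated channel of rods and olfactory neurons, had 4.09, 3.22 and 3.86 TPM in adult *N. nycticorax*, against 2.59, 3.62 and 8.17 TPM in nestlings, and 1.56, 0.405 and 2.30 TPM in adult *E. garzetta*, against 0.807, 0.451 and 3.34 TPM in nestlings. Its differences of -0.20 ± 0.59 (SE) in *N. nycticorax*, against 0.08 ± 0.89 (SE) in *E. garzetta* changed sign between alternatives, and the high nestling 3 of each species was also the bird with the highest OR sum, 70.8 TPM in *N. nycticorax*, against 43.6 TPM in *E. garzetta*. The part of olfactory neuron content in the CNGB1 values was not tested. RRM1, needed to make the nucleotides for DNA synthesis, had 12.7, 12.6 and 12.4 TPM in adult *N. nycticorax*, against 17.7, 20.4 and 32.9 TPM in nestlings, and 21.4, 24.1 and 19.9 TPM in adult *E. garzetta*, against 26.6, 26.7 and 23.8 TPM in nestlings. Every adult lay below every nestling in *N. nycticorax*, and in *E. garzetta* adult 5 alone reached the range of the nestlings. The RRM1 adult minus nestling difference was -0.86 ± 0.38 (SE) in *N. nycticorax*, against -0.24 ± 0.19 (SE) in *E. garzetta* on the log2 scale, and the lower mean in adults was found in both species in every alternative tried.

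**Figure D3:**
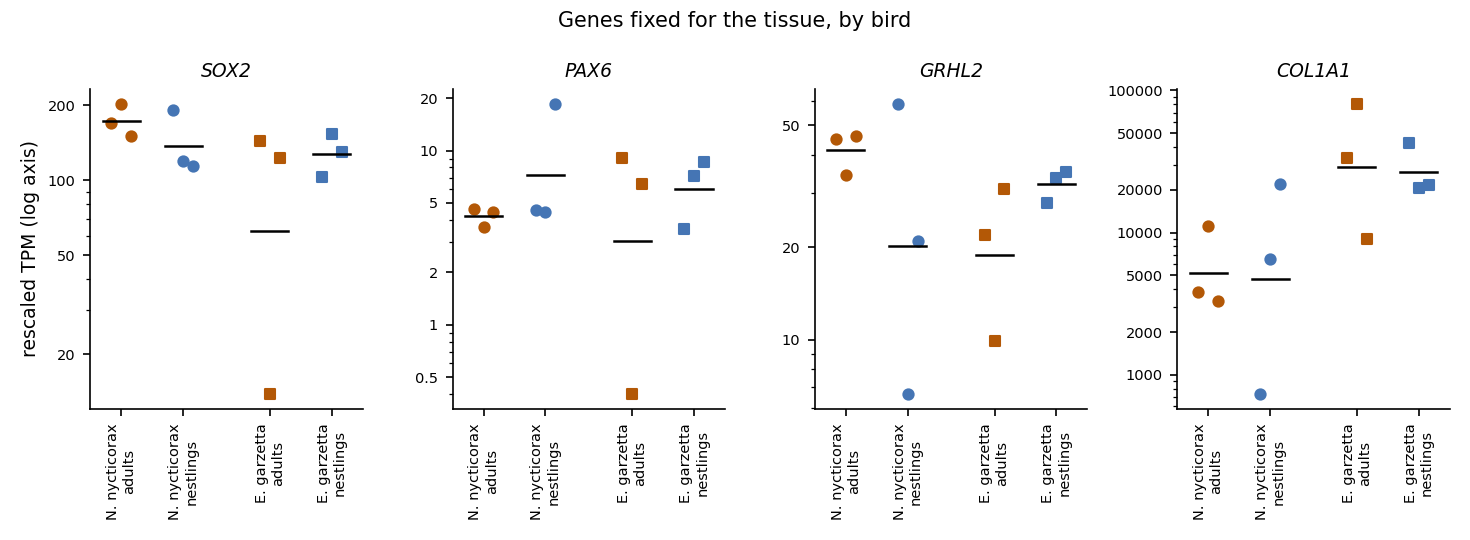
Rescaled TPM (log axis) of each bird for SOX2, PAX6, GRHL2 and COL1A1, adults left of nestlings, N. nycticorax (circles) left of E. garzetta (squares), with a line at the geometric mean after adding 0.1 TPM. Adult 5 of E. garzetta is the lowest bird of its species for SOX2 (13.8 TPM), PAX6 (0.398 TPM) and GRHL2 (9.91 TPM) and the highest for COL1A1 (80963 TPM).

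Of 38 listed genes of phototransduction, the visual cycle and photoreceptor structure, 30 were tested. Adults had the higher mean for 18 in *N. nycticorax*, against 19 in *E. garzetta*, with 15 in the same direction and median differences of 0.26 in *N. nycticorax*, against 0.16 in *E. garzetta*. These medians were positive under every scaling, and without nestling 2 of *N. nycticorax* and adult 5 of *E. garzetta* they were 0.05 in *N. nycticorax*, against 0.34 in *E. garzetta*. The most abundant were GNB1, GNB5, PDE6D and RD3, of which GNB1 and GNB5 are G-protein beta subunits used in many cells. The gene model of GNB1 has 249 coding bases in *N. nycticorax*, against 1200 in *E. garzetta*. GNB1 had 250.1, 273 and 355 TPM in adult *N. nycticorax*, against 278, 213 and 359.7 TPM in nestlings, and 323, 317 and 252 TPM in adult *E. garzetta*, against 290.2, 302 and 322 TPM in nestlings. GNB5 differed by -0.05 ± 0.40 (SE) in *N. nycticorax*, against 0.27 ± 0.28 (SE) in *E. garzetta*, and RD3, a regulator of guanylate cyclase transport, by 0.39 ± 0.50 (SE) in *N. nycticorax*, against 0.29 ± 0.40 (SE) in *E. garzetta*. PDE6D, a carrier of prenylated proteins, had 51.0, 41.3 and 43.8 TPM in adult *N. nycticorax*, against 73.0, 213 and 89.4 TPM in nestlings, and 91.8, 64.5 and 48.8 TPM in adult *E. garzetta*, against 56.1, 64.5 and 79.2 TPM in nestlings. It was apart in *N. nycticorax* with adults lower, and its *E. garzetta* difference was 0.0046 ± 0.27 (SE). The cone kinase GRK7 and the cone channel CNGA3, both with adults higher, and the exchanger SLC24A1 were also apart in *N. nycticorax*. The exchanger SLC24A2 was apart in *E. garzetta*, with adults higher. Of the 30 genes, 4 had every adult above and 2 every adult below in *N. nycticorax*, beside 9.73% and 10.4% of all genes. In *E. garzetta* these counts were 3 and 0, beside 3.95% and 4.06% of all genes.

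All 19 cilia and intraflagellar transport genes were tested. Adults had the lower mean for 11 in *N. nycticorax*, against 15 in *E. garzetta*, with 9 in the same direction and medians of -0.12 in *N. nycticorax*, against -0.20 in *E. garzetta*, of which the *N. nycticorax* median turned to 0.33 without rescaling. TMEM231, of the ciliary transition zone, had 66.9, 65.7 and 59.8 TPM in adult *N. nycticorax*, against 98.9, 167 and 62.2 TPM in nestlings, and 60.0, 55.5 and 69.3 TPM in adult *E. garzetta*, against 76.1, 67.9 and 68.2 TPM in nestlings. B9D1, of the same zone, differed by -0.35 ± 0.37 (SE) in *N. nycticorax*, against 0.08 ± 0.19 (SE) in *E. garzetta*. IFT88, of the particle that carries cargo up the cilium, had 62.8, 44.9 and 62.7 TPM in adult *N. nycticorax*, against 83.1, 162 and 31.9 TPM in nestlings, and 47.3, 17.2 and 35.1 TPM in adult *E. garzetta*, against 25.9, 41.1 and 47.3 TPM in nestlings. Its highest *N. nycticorax* bird was nestling 2 after the rescaling but nestling 1 as deposited, and its lowest *E. garzetta* bird was adult 5. Without nestling 2 of *N. nycticorax* and adult 5 of *E. garzetta* the medians of the list were -0.01 in *N. nycticorax*, against -0.06 in *E. garzetta*. IFT122, of the particle that carries cargo back, differed by -0.45 ± 0.41 (SE) in *N. nycticorax*, against -0.45 ± 0.32 (SE) in *E. garzetta*. RPGRIP1L and TTC8, 2 of the 19 genes, had every adult below every nestling in *N. nycticorax*, beside 10.4% of all genes, so their number is near that share.

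For 13 extracellular matrix and mesenchyme genes the medians were 0.19 in *N. nycticorax*, against -0.08 in *E. garzetta*, with 8 higher in adults in *N. nycticorax*, against 6 in *E. garzetta* and 5 in the same direction, and the *N. nycticorax* median turned to -0.06 with the rescaling over paired genes. Beside COL1A1, LUM and VIM the most abundant was COL4A1, a basement membrane collagen, which differed by 0.27 ± 0.46 (SE) in *N. nycticorax*, against -0.41 ± 0.32 (SE) in *E. garzetta*. For 12 Wnt genes the medians were 0.16 in *N. nycticorax*, against -0.01 in *E. garzetta*, the *N. nycticorax* one of which turned to -0.10 with that rescaling, with 8 higher in adults in *N. nycticorax*, against 5 in *E. garzetta* and 7 in the same direction. CTNNB1, the transducer beta-catenin, had 436, 500.2 and 421 TPM in adult *N. nycticorax*, against 452, 338 and 493 TPM in nestlings, and 633, 547 and 444 TPM in adult *E. garzetta*, against 504, 522 and 544 TPM in nestlings. Its differences were 0.09 ± 0.31 (SE) in *N. nycticorax*, against 0.03 ± 0.19 (SE) in *E. garzetta*. WNT5A and WNT5B, ligands of the planar polarity branch, differed by 0.18 ± 0.50 (SE) and 0.13 ± 0.60 (SE) in *N. nycticorax*, against 0.46 ± 0.49 (SE) and 0.24 ± 0.33 (SE) in *E. garzetta*, and TSPAN12, a co-receptor component, by 0.31 ± 0.29 (SE) in *N. nycticorax*, against -0.01 ± 0.23 (SE) in *E. garzetta*.

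BMP and TGF-beta signalling steers proliferation and differentiation in many epithelia. Adults had the higher mean for 12 of 14 in *N. nycticorax*, against 6 of 14 in *E. garzetta*, with medians of 0.56 in *N. nycticorax*, against -0.02 in *E. garzetta* and 6 in the same direction. The *N. nycticorax* median was positive under every scaling, with 9 of 14 higher in adults after the rescaling over paired genes, and was 0.19 without nestling 2. TGIF1, a repressor of the pathway, had 268, 193 and 234 TPM in adult *N. nycticorax*, against 174, 342 and 116 TPM in nestlings, and 132, 104 and 187 TPM in adult *E. garzetta*, against 169, 212 and 144 TPM in nestlings. The groups overlapped in both species. TWSG1, an extracellular BMP modulator, differed by 0.54 ± 0.50 (SE) in *N. nycticorax*, against -0.02 ± 0.49 (SE) in *E. garzetta*, and the ligand TGFB2 by -0.05 ± 0.64 (SE) in *N. nycticorax*, against -0.35 ± 0.63 (SE) in *E. garzetta*. SMAD3, a transducer of TGF-beta receptors, had 71.5, 58.6 and 61.8 TPM in adult *N. nycticorax*, against 65.1, 22.1 and 52.6 TPM in nestlings, and 62.7, 60.6 and 80.4 TPM in adult *E. garzetta*, against 67.3, 52.2 and 61.8 TPM in nestlings, with differences of 0.59 ± 0.43 (SE) in *N. nycticorax*, against 0.16 ± 0.19 (SE) in *E. garzetta*. SKI and SMAD1 were apart in *N. nycticorax* and the receptor BMPR1B in *E. garzetta*, each with adults higher. These are 2 and 1 of 14 genes, beside 9.73% of all genes in *N. nycticorax* and 3.95% in *E. garzetta*.

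Of the 6 retinoic acid genes, 4 had higher adult means in *N. nycticorax*, against 2 in *E. garzetta*, with medians of 0.28 in *N. nycticorax*, against -0.21 in *E. garzetta*, and the *E. garzetta* median turned to 0.17 without adult 5. ALDH1A3, which makes retinoic acid, had 198, 209 and 193 TPM in adult *N. nycticorax*, against 179, 27.5 and 78.6 TPM in nestlings, and 89.1, 70.5 and 207 TPM in adult *E. garzetta*, against 119, 122 and 112 TPM in nestlings. Nestling 1 of *N. nycticorax* was near the adults, and nestlings 2 and 3 were lower. The ALDH1A3 adult minus nestling difference was 1.45 ± 0.61 (SE) in *N. nycticorax*, against -0.11 ± 0.38 (SE) in *E. garzetta* on the log2 scale. ALDH1A1, another such enzyme, spanned 12.5 to 174 TPM within nestling *N. nycticorax* alone, and its difference was -0.38 ± 0.88 (SE) in *N. nycticorax*, against -0.66 ± 0.72 (SE) in *E. garzetta*. The receptors RXRA and NR1B2 differed by 0.15 ± 0.29 (SE) and -0.39 ± 0.34 (SE) in *N. nycticorax*, against -0.40 ± 0.26 (SE) and 0.22 ± 0.32 (SE) in *E. garzetta*. The retinol transporter STRA6 had every adult above every nestling in *E. garzetta*, with a difference of 1.25 ± 0.54 (SE), and 0.55 ± 1.29 (SE) in *N. nycticorax*. Its gene model has 285 coding bases in *N. nycticorax*, against 1863 in *E. garzetta*.

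Developmental transcription factors had higher adult means for 17 of 26 in *N. nycticorax*, against 6 of 26 in *E. garzetta*, with medians of 0.18 in *N. nycticorax*, against -0.27 in *E. garzetta* and 9 in the same direction. The *E. garzetta* median stayed negative under every scaling and was -0.12 without nestling 2 of *N. nycticorax* and adult 5 of *E. garzetta*, whereas that of *N. nycticorax* turned to -0.06 with the rescaling over paired genes and to -0.01 without those birds. KLF4, a factor of surface epithelia, had 114, 197 and 97.7 TPM in adult *N. nycticorax*, against 82.5, 117 and 50.2 TPM in nestlings, and 45.5, 171 and 99.6 TPM in adult *E. garzetta*, against 142, 31.6 and 63.6 TPM in nestlings. YY1, a widely expressed regulator, differed by -0.0016 ± 0.33 (SE) in *N. nycticorax*, against -0.28 ± 0.20 (SE) in *E. garzetta*. SOX14 had 92.0, 84.5 and 55.8 TPM in adult *N. nycticorax*, against 91.9, 122 and 78.8 TPM in nestlings, and 2.18, 0.253 and 1.19 TPM in adult *E. garzetta*, against 0.667, 0.337 and 1.13 TPM in nestlings. Stages overlapped within each species, while every *N. nycticorax* bird lay above every *E. garzetta* bird, on gene models that were built separately.

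Lens proteins and gap junction genes had medians of -0.22 in *N. nycticorax*, against -0.02 in *E. garzetta*, with 4 of 12 higher in adults in *N. nycticorax*, against 6 of 12 in *E. garzetta* and 6 in the same direction, and the *N. nycticorax* median turned to 0.12 without rescaling and to 0.35 without nestling 2 of *N. nycticorax* and adult 5 of *E. garzetta*. CRYAB, a small heat shock protein of lens and other tissues, had 4.77, 11.4 and 9.80 TPM in adult *N. nycticorax*, against 22.1, 17.1 and 22.9 TPM in nestlings, and 17.8, 3.56 and 13.8 TPM in adult *E. garzetta*, against 1.69, 7.03 and 9.60 TPM in nestlings. It was apart in *N. nycticorax*, and the species-by-stage difference was -2.29 ± 0.98 (SE), adjusted p = 0.667, negative in every alternative tried. GJA1, the widespread connexin 43, had 110.0, 337 and 91.2 TPM in adult *N. nycticorax*, against 26.5, 68.1 and 394 TPM in nestlings, and 899, 1016 and 329 TPM in adult *E. garzetta*, against 879.9, 552 and 593 TPM in nestlings, with overlapping groups. GJC1, connexin 45, differed by 1.24 ± 0.77 (SE) in *N. nycticorax*, where nestling 2 was lowest at 0.856 TPM, and by -0.05 ± 0.36 (SE) in *E. garzetta*.

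For 15 neuronal receptor, channel and surface genes the medians were -0.07 in *N. nycticorax*, against 0.25 in *E. garzetta*, with 7 higher in adults in *N. nycticorax*, against 11 in *E. garzetta* and 7 in the same direction, and the *N. nycticorax* median turned to 0.38 without rescaling and to 0.01 without nestling 2 of *N. nycticorax* and adult 5 of *E. garzetta*. THY1, a surface protein of neurons and other cells, had 73.4, 75.7 and 70.1 TPM in adult *N. nycticorax*, against 45.4, 102 and 116 TPM in nestlings, and 80.4, 96.3 and 74.9 TPM in adult *E. garzetta*, against 89.7, 65.6 and 59.2 TPM in nestlings. VSNL1, a neuronal calcium sensor, differed by -0.07 ± 0.50 (SE) in *N. nycticorax*, against 0.30 ± 0.25 (SE) in *E. garzetta*, and NTRK2, the BDNF receptor, by 0.78 ± 0.92 (SE) in *N. nycticorax*, against -0.49 ± 0.40 (SE) in *E. garzetta*.

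Chromatin, replication and ribosome genes had medians of 0.17 in *N. nycticorax*, against -0.14 in *E. garzetta*, with 7 of 12 higher in adults in *N. nycticorax*, against 5 of 12 in *E. garzetta* and 6 in the same direction. The *N. nycticorax* median turned to -0.08 with the rescaling over paired genes and to -0.17 without nestling 2 of *N. nycticorax* and adult 5 of *E. garzetta*, when 1 of 12 was higher in adults. HDAC1 and HDAC2, the deacetylases of several repressor complexes, differed by 0.20 ± 0.32 (SE) and -0.17 ± 0.25 (SE) in *N. nycticorax*, against -0.24 ± 0.15 (SE) and -0.18 ± 0.21 (SE) in *E. garzetta*. NOB1, a nuclease of ribosomal RNA maturation, had 53.2, 49.4 and 53.5 TPM in adult *N. nycticorax*, against 68.4, 188 and 84.1 TPM in nestlings, and 36.0, 52.1 and 61.1 TPM in adult *E. garzetta*, against 58.0, 34.8 and 32.2 TPM in nestlings. Like RPL24 and PDE6D it was apart in *N. nycticorax*, with nestling 2 far above the other nestlings, and its species-by-stage difference was -1.25 ± 0.54 (SE), adjusted p = 0.667. The rescaling divided the TPM of nestling 2 by 0.54, and as deposited this bird lay less far above the others for these genes.

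The 5 hypoxia and vessel genes had higher means in adults for 5 in *N. nycticorax*, against 0 in *E. garzetta*, with medians of 0.74 in *N. nycticorax*, against -0.14 in *E. garzetta*. In *N. nycticorax* 3 of 5 were higher in adults after the rescaling over paired genes and 2 of 5 without nestling 2, when the median was -0.02. HIF1A, the oxygen-regulated factor, had 69.4, 43.9 and 68.5 TPM in adult *N. nycticorax*, against 47.4, 10.3 and 51.1 TPM in nestlings, and 41.8, 55.6 and 48.0 TPM in adult *E. garzetta*, against 63.5, 43.2 and 54.1 TPM in nestlings. EPAS1, its relative, had 218, 227 and 225 TPM in adult *N. nycticorax*, against 257, 136 and 199 TPM in nestlings, and 245, 109 and 242 TPM in adult *E. garzetta*, against 206, 287 and 221 TPM in nestlings. NRP1, a co-receptor for VEGFA, had 45.2, 51.1 and 42.0 TPM in adult *N. nycticorax*, against 58.1, 8.25 and 43.2 TPM in nestlings, and 49.6, 50.3 and 24.2 TPM in adult *E. garzetta*, against 55.0, 41.3 and 43.3 TPM in nestlings. VEGFA itself differed by 0.10 ± 0.56 (SE) in *N. nycticorax*, against -0.04 ± 0.27 (SE) in *E. garzetta*. Nestling 2 of *N. nycticorax* was the lowest bird of its species for all 5 genes, RHOJ included.

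**Figure D4:**
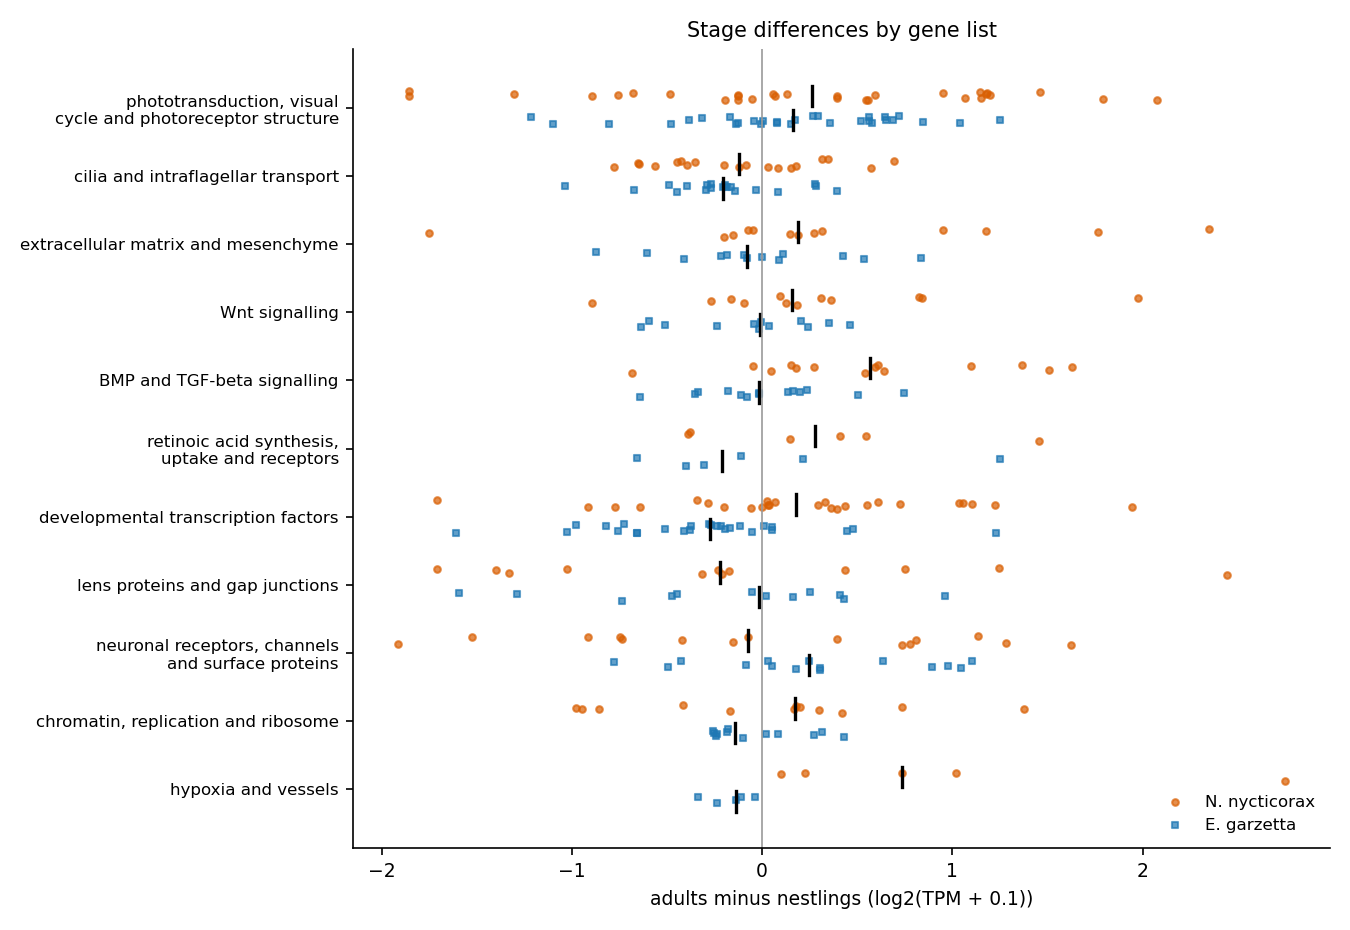
Adult minus nestling differences (x axis, log2(TPM + 0.1) units) of the genes of 11 lists, N. nycticorax as circles above E. garzetta as squares in each row, with a black line at the median. The E. garzetta genes lie closer to 0, and the medians differ most for hypoxia and vessels (0.74 in N. nycticorax, against -0.14 in E. garzetta) and for BMP and TGF-beta signalling (0.56 in N. nycticorax, against -0.02 in E. garzetta).

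With each bird left out in turn the same direction was found for 97 pairs (41.1%, without adult 5 of *E. garzetta*) to 123 pairs (52.1%, without nestling 2 of *N. nycticorax*), and r lay between -0.10 (without nestling 1 of *N. nycticorax*) and 0.10 (without nestling 3 of *N. nycticorax*). Without both nestling 2 of *N. nycticorax* and adult 5 of *E. garzetta* 119 of 236 pairs (50.4%) had the same direction. The number of pairs with an unadjusted p under 0.05 for the species-by-stage difference was 49 without nestling 1 of *N. nycticorax*, the nestling most like the adults of its species, and 6 to 23 without any other bird, with 0 called each time. The 4 pairs apart in both species with opposite directions became 4 to 8 and the pairs with the same direction 0 to 6. Over all 22 alternatives 60 pairs kept their sign in both species, 31 with the same direction and 29 with opposite directions. Several of these alternatives cannot change a sign, and a left-out bird cannot change that of the other species.

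**Figure D5:**
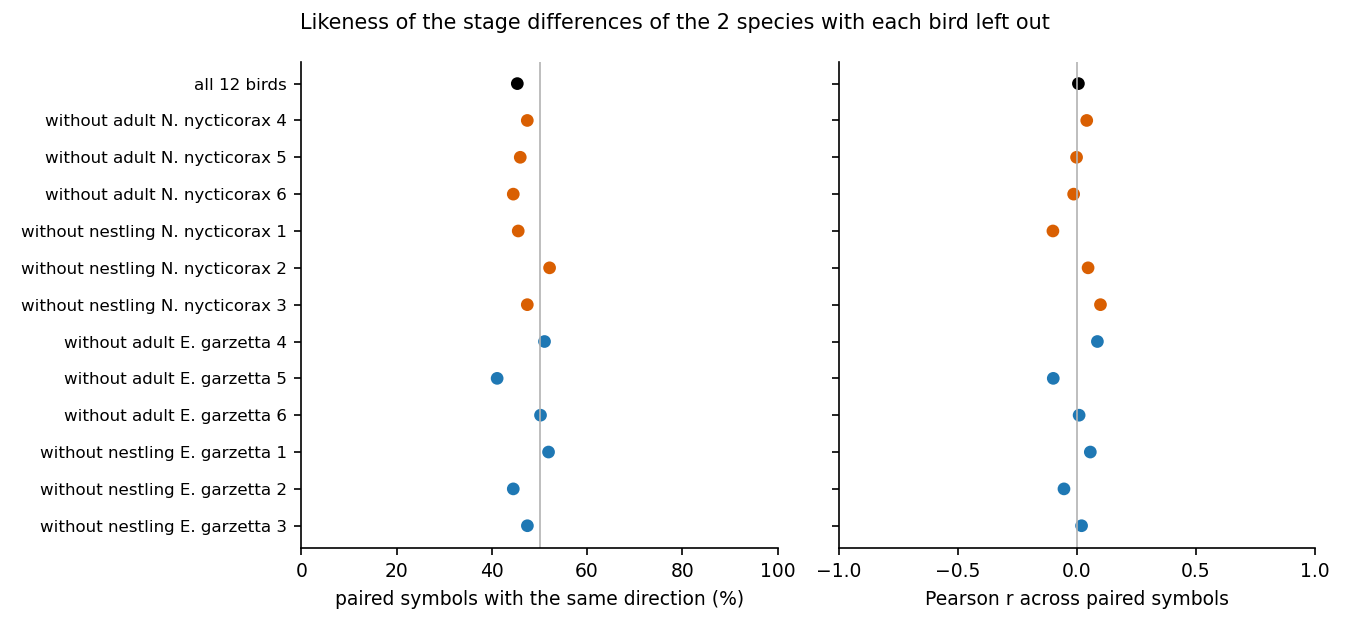
Share of paired genes with the same direction in both species (left, percent) and Pearson's r between the differences of the 2 species (right) with all 12 birds (black) and without each N. nycticorax bird (orange) or E. garzetta bird (blue). The share stays between 41.1% and 52.1% and r between -0.10 and 0.10.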

How the data were processed

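OE RNA of 12 birds was sequenced as 150 bp read pairs. The authors used Trimmomatic for trimming, HISAT2 for mapping to the own genome of the species and StringTie 2.1.4 for the quantification of annotated transcripts. The deposited TPM values sum to 1000000 per bird. The deposited FPKM values were not used. The deposited coverage is a signal per base, from which reads per bird were worked out. The authors later merged birds with TACO, a step not repeated here. Coding lengths are a multiple of 3 for 100.0% of *N. nycticorax* and 92.6% of *E. garzetta* gene models, so few reads of untranslated regions count. The gene models of a pair can differ in coding length, so its values may then cover unlike parts of a gene.

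TPM were rescaled by the median ratio within each species and tested as log2(TPM + 0.1) with limma 3.58.1 in R 4.3.3 (lmFit, eBayes with a trend), leaving out genes whose mean was under 0.02 TPM. P-values were adjusted by Benjamini and Hochberg's method and called under 0.05. On this scale a fold change understates the change of weak genes. Each species was fitted alone, and the species-by-stage difference over the 236 pairs with all 12 birds, the whole table of that comparison. Differences are adults minus nestlings. Rates over all genes stand beside counts of pairs under a p or apart, but not beside counts of large differences. Correlations across genes carry no p, since genes are not independent. The fits were tested on simulated data. Tables and figures used Python 3.11.15, numpy 2.4.6, pandas 2.3.3 and matplotlib 3.10.9.

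Named are pairs with a mean of at least 1 TPM in each species that were apart in both species, the 6 with the smallest species-by-stage p, the largest differences of each species, 8 genes of the tissue, and the 4 most abundant genes of each list. Members, lists and rules were chosen with earlier results of these data known. Alternatives were the pseudocount, the filter, the scaling, eBayes without a trend, a replicate block, unshared identifiers and each bird left out. Positions count from 1 on the scaffolds of the files. The *N. nycticorax* genome is the draft assembly of the study. For HISAT2 no version is given in the sources used here. No genome sequence was used.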

Additional observations from a re-analysis of the deposited data

How the results depend on the processing

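No pair was called under any of the 22 alternatives, and 60 of 236 pairs kept their sign in both species under all of them. The filter, the eBayes trend, the replicate block and unshared identifiers leave each stage difference as it was, so they cannot change its sign. A left-out bird cannot change the sign of the other species. Without the filter limma called 2 *N. nycticorax* genes and 3 *E. garzetta* genes, with no pair among these. With a bird left out the calls over all genes ranged from 0 to 16 in *N. nycticorax* (16 without nestling 1) and from 0 to 1 in *E. garzetta* (1 without nestling 1), and the correlation from -0.10 to 0.10. The main fits did not pair birds by number. Correlations of same-numbered birds between species were -0.13 to 0.30, with 2 of 6 birds closest to their own number, adults 5 and 6 (r = 0.29 and 0.30). With 3 birds a group these values cannot tell whether same-numbered birds were handled together. With the bird number as a replicate block across species 0 pairs were called and 17 had an unadjusted p under 0.05 for the species-by-stage difference. Standard errors of about 0.4 to 0.6 on the log2 scale limit what 3 birds a group can show, and the cause of the changes below was not tested.

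Pairs with adults above nestlings numbered 33 to 70 for *N. nycticorax* against 9 to 30 for *E. garzetta* with a bird left out, those with adults below 17 to 35 for *N. nycticorax* against 5 to 30 for *E. garzetta*, those apart in both species the same way 0 to 6 and opposite ways 4 to 8. The counts over all genes rose too. Without nestling 1 of *N. nycticorax* 2879 of 13008 genes had adults above and 2882 below, against 1269 and 1354 of 13042 with all birds. In *E. garzetta* 1410 of 14880 genes had adults above without adult 6, against 591 of 14960 with all birds. Without adult 4 1899 of 14834 had adults below, against 608. A group of 2 birds is easier to separate. Without rescaling 7 pairs had adults below for *N. nycticorax* against 13 for *E. garzetta*, and 1 was apart in both the same way. With nestling 2 of *N. nycticorax* and adult 5 of *E. garzetta* both left out, an alternative chosen after seeing the data, 20 pairs had adults above and 15 below in *E. garzetta*, and 2 were apart in both the same way and 7 opposite ways. Of all 14882 *E. garzetta* genes 1127 then had adults above and 1014 below.

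Of 60 values of the 20 genes named by their own values or for the tissue, 23 changed sign under some alternative. Of the 37 other genes given as list examples, 11 kept their sign under all alternatives in *N. nycticorax*, against 16 in *E. garzetta*, and 5 in both. Without rescaling the *N. nycticorax* differences were 0.24 for CNGB1, 0.30 for LUM and 0.25 for VIM, those of *E. garzetta* -0.074 for EPHB1, -0.025 for CNGB1, -0.017 for COL1A1 and -0.037 for VIM, and the species-by-stage differences 0.047 for IMPG2, 0.27 for CNGB1 and 0.29 for VIM. With the rescaling over paired genes they were -0.12 for FZR1 and -0.11 for COL1A1 in *N. nycticorax*, and -0.044 for PAX6 and -0.22 for COL1A1 between species. With a pseudocount of 1 TPM CRYBA2 gave -0.31 in *N. nycticorax* and PAX6 -0.11 between species. With both birds left out LUM gave 0.20 and VIM 0.044 in *N. nycticorax*. In *E. garzetta* this gave -0.22 for EPHB1, 0.073 for LAMA1, 0.51 for CRYBA2, 0.064 for SOX2, 0.34 for PAX6, -0.63 for COL1A1, -0.00431 for LUM and -0.36 for VIM, and between species -1.46 for PAX6, 0.20 for LUM and 0.40 for VIM.

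With single birds left out the *N. nycticorax* differences ranged from -1.74 to 1.91 for CRYBA2, -0.54 to 0.26 for CNGB1, -1.19 to 1.26 for COL1A1, -0.85 to 0.46 for LUM and -0.67 to 0.044 for VIM. Those of *E. garzetta* ranged from -0.22 to 0.34 for EPHB1, -0.58 to 0.22 for LAMA1, -0.29 to 0.14 for RHOJ, -3.07 to 0.51 for CRYBA2, -1.62 to 0.064 for SOX2, -1.76 to 0.34 for PAX6, -0.48 to 0.84 for CNGB1, -0.63 to 0.95 for COL1A1, -0.00431 to 1.09 for LUM and -0.36 to 0.57 for VIM. The species-by-stage differences ranged from -0.15 to 3.51 for CRYBA2, -1.11 to 0.99 for PAX6, -1.04 to 0.28 for CNGB1, -1.30 to 1.15 for COL1A1, -1.28 to 0.033 for LUM and -0.78 to 0.15 for VIM.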
